A study of Homo sapiens with 10 samples.

Results

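The 8 genes TCP1, CCT2, CCT3, CCT4, CCT5, CCT6A, CCT7 and CCT8 encode the subunits of CCT (also called TRiC), the chaperonin of the eukaryotic cytosol. They were taken by name, as 8 of the 20037 protein-coding genes in the RefSeq table used, and each was described by the WDR5 and EMBOW summits called near its ends. The set was chosen by a measured value, since the highest summit of the knockout WDR5 list lies at CCT7, so the WDR5 values of these genes are given as a description and carry no test. ChIP-seq with 1 anti-WDR5 antibody was done in EMBOW knock-out HEK293T cells (KO) and in wild-type HEK293T cells (WT), EMBOW being a microprotein. Anti-FLAG beads were used on HEK293T cells with stable EMBOW-FH, which gave the EMBOW-F list. HEK293T is a human embryonic kidney line with SV40 large T antigen, and all chromatin came from nuclei digested with micrococcal nuclease. The labels do not say whether the knockout line is 1 clone or what promoter drives the tagged protein, and none of the lists measures EMBOW in the KO cells.

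CCT is a double ring. Each ring carries 1 copy of every subunit, and closure of the rings on ATP folds proteins that cannot fold well by themselves, above all actin, the tubulins and many WD40-repeat proteins. All of the subunits are needed for a working ring. WDR5 is itself a WD40-repeat protein, best known as a subunit of the COMPASS family of complexes that methylate histone H3 at lysine 4 near the starts of active genes.

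Each group is 1 library, so no difference between KO and WT has a replicate check and no p-value was computed. The deposited lists give summits of 1 bp with a −log10 q value per summit, which are the authors' own scores, and ranks are counted from the highest −log10 q within a list. The KO list held 21055 summits with a median −log10 q of 6.28, the WT list 17660 with a median of 6.53, and the EMBOW-F list 93143 with a median of 3.25. Read depth is unknown, because the lists hold no counts. Ranks from lists of different length do not measure a change between genotypes. Gene-end summits are those at most 1 kb from the start or the end of a RefSeq gene, and positions are on hg38.

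The sequences just upstream of the annotated start are shown for 4 members, because the level of WDR5 divides the genes into a very high pair, CCT7 and CCT4, and 6 others far below it, of which CCT8 and CCT2 have no end of another protein-coding gene within 1 kb. They come from RefSeq promoters on GRCh38.p14, read 5′ to 3′ on the strand of the gene, and capitals mark the motifs described after them, as their reverse complement where they lie on the other strand. No capitals mean no match. CCT7 is chr2:73234058-73234307 on the plus strand, and CCT8 is chr21:29073649-29073898 on the minus strand. CCT2 is chr12:69585209-69585458 on the plus strand. For CCT4, chr2:61888672-61888724 on the minus strand, the 53 bases between its start and an oppositely directed start of COMMD1 are shown.
CCT7: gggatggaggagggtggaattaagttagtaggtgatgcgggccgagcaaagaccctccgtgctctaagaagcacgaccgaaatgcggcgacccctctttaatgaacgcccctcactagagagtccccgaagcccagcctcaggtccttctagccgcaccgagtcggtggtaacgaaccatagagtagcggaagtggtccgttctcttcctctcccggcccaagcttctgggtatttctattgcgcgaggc
CCT4: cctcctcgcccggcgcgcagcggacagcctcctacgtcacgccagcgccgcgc
CCT8: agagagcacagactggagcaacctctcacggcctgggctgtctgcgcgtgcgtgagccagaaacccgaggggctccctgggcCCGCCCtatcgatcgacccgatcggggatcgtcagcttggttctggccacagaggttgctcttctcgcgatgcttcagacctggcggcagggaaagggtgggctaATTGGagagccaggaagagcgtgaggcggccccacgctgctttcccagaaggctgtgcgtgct
CCT2: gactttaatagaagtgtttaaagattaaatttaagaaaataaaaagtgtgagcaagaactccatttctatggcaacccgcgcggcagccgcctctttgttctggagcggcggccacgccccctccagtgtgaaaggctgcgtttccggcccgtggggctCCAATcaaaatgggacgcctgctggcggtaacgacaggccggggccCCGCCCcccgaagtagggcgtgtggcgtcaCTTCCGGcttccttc

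The promoters differed in the motifs of common promoter factors that they held. Windows of 300 bases (250 before to 50 after a start) were found for 7 members, in 9 windows, and CCT6A had no entry. CCAAT (the CCAAT box) was present at TCP1, CCT2, CCT3 and CCT8, or 4 of 7, and in 42.1% of 15843 protein-coding genes with such windows. GGGCGG (the GC box of SP1) was present at the same 4 genes and at CCT7, or 5 of 7, against 64.3% of all genes. At CCT7 the GC box lay just after the start and is therefore not among the bases shown. The windows of CCT4 and CCT5 held none of the 9 motifs searched, and that of CCT7 held no other. The 1 window of CCT5 belongs to a start at 10250537, inside the gene, whose outer end lies at 10249921. Bases upstream of that end were therefore not searched for CCT5.

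CCT2, searched in 2 windows, was the 1 member with CCGGAAG (ETS factors), found in 16.5% of all genes, and with AAGATGG (YY1), found in 7.90%. GAANNTTC, a pair of half-sites of the heat shock element, occurred at TCP1 and CCT2 and in 7.38% of all genes. The YY1 and heat shock motifs of CCT2 belong to the window of its second start and so are not in the bases shown. No member held CACGTG (the E-box of MYC), TATAAA (the TATA box), GCATGCGC (the core of NRF1 sites) or ACTACAATT (of ZNF143 sites), which were in 10.9%, 12.4%, 4.89% and 0.530% of all genes. Both strands were searched, a gene with several windows counted if any of them held the motif, and no 2 different motifs overlapped in the members' windows. Per window, the shares over all 22199 windows were 34.7% for CCAAT and 56.3% for GGGCGG. The GC content of the members' windows ran from 57.7% to 70.0%, beside a median of 62.3% over all windows (quartiles 53.0% and 70.0%).

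All 8 subunit genes had a WDR5 gene-end summit in KO and all 8 in WT, so 8 of 8 were marked in both genotypes. Over all protein-coding genes, 53.4% had such a summit in KO, 50% in WT and 46.4% in both. The members' levels were far apart. CCT7 and CCT4 held summits of the very highest class in both genotypes, and the summits of the other 6 genes were far lower.

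CCT7, the eta subunit on chromosome 2, carried a summit with a −log10 q of 1214 in KO, the highest of that list, and of 1155 in WT, at rank 10. CCT4, the delta subunit on the same chromosome, had a −log10 q of 903 at rank 25 in KO and of 1031 at rank 20 in WT. Gene-end summits of rank 25 or better in both lists were found at 2 of 8 members and at 20 of all protein-coding genes, or 0.0998%. In KO alone, rank 100 or better was reached by the same 2 members and by 0.499% of all genes. The set was chosen by the KO value of CCT7, and the limit of 25 is itself the KO rank of CCT4, so these counts only describe it. The CCT4 summit lay nearer to an end of COMMD1 (70 bp in KO and 81 bp in WT) than to CCT4's own (210 bp and 199 bp).

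TCP1, the alpha subunit for which the family is named, came next in both lists, with a −log10 q of 24.7 at rank 1286 in KO and of 20.5 at rank 1428 in WT. CCT2, the beta subunit, had 16.5 (rank 3113) in KO and 15.0 (rank 2762) in WT. CCT8, the theta subunit, had 12.8 (rank 4789) in KO and 14.4 (rank 3064) in WT. Between CCT4 and TCP1 lay 1260 other summits of the KO list and 1407 of the WT list, so no member held an intermediate level.

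CCT6A, the zeta subunit, had a −log10 q of 11.9 (rank 5288) in KO and of 19.6 (rank 1584) in WT. CCT5, the epsilon subunit, had 10.5 (rank 6323) in KO and 14.0 (rank 3145) in WT. CCT3, the gamma subunit, was lowest in both lists, with 2.92 (rank 17321) in KO and 10.4 (rank 5218) in WT. The order of the members was the same in the KO and WT lists except for CCT6A, which stood after CCT2 and CCT8 in KO and before them in WT. With 1 library per genotype, whether neighbours in this order differ beyond replicate spread cannot be told.

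**Figure D1:**
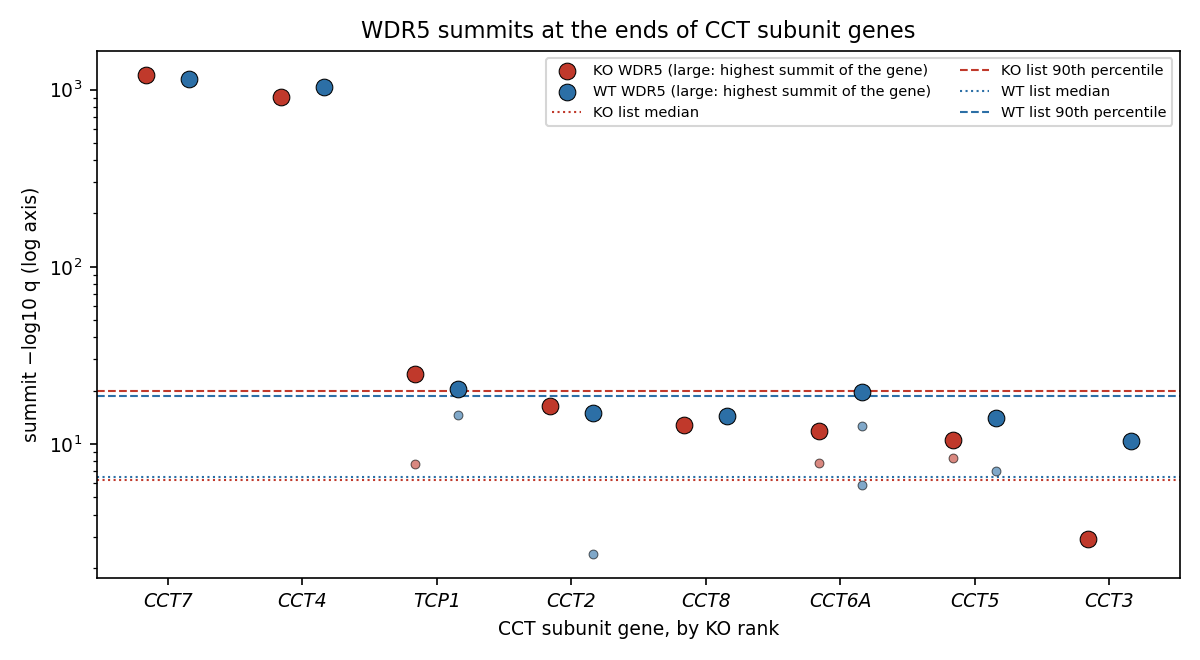
Summit −log10 q on a log axis for every gene-end summit of the 8 genes, KO left of WT in each gene, with large points for the highest summit of a gene and small points for the others, and lines for the median and 90th percentile of each list. CCT7 and CCT4 lie between 903 and 1214, and every other member lies at 24.7 or below.

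Summits as high as those at CCT7 and CCT4 were rare in both lists. A −log10 q of 100 or more was reached by 144 KO summits (0.684%) and 126 WT summits (0.713%), and of 900 or more by 25 KO summits and 38 WT summits. The limit of 900 lies just below the KO value of CCT4 (903), so it describes that level only. The curves of −log10 q against rank fall steeply near rank 100, and CCT7 and CCT4 lie before that fall while the other 6 genes lie after it. Among the highest 10% of a list were TCP1, CCT4 and CCT7 in KO (3 of 8) and the same 3 with CCT6A in WT (4 of 8). With summits of a q of 1e-05 or less alone, the WT count was 2 of 8, CCT4 and CCT7. Over all protein-coding genes the shares in the highest 10% of the full lists were 9.49% in KO and 8.02% in WT. The members' counts include CCT7, by which the set was chosen. The median rank of the highest gene-end summit was 3951 in KO and 2173 in WT over the 8 members, and 6353 in KO and 5945 in WT over all genes with one.

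**Figure D2:**
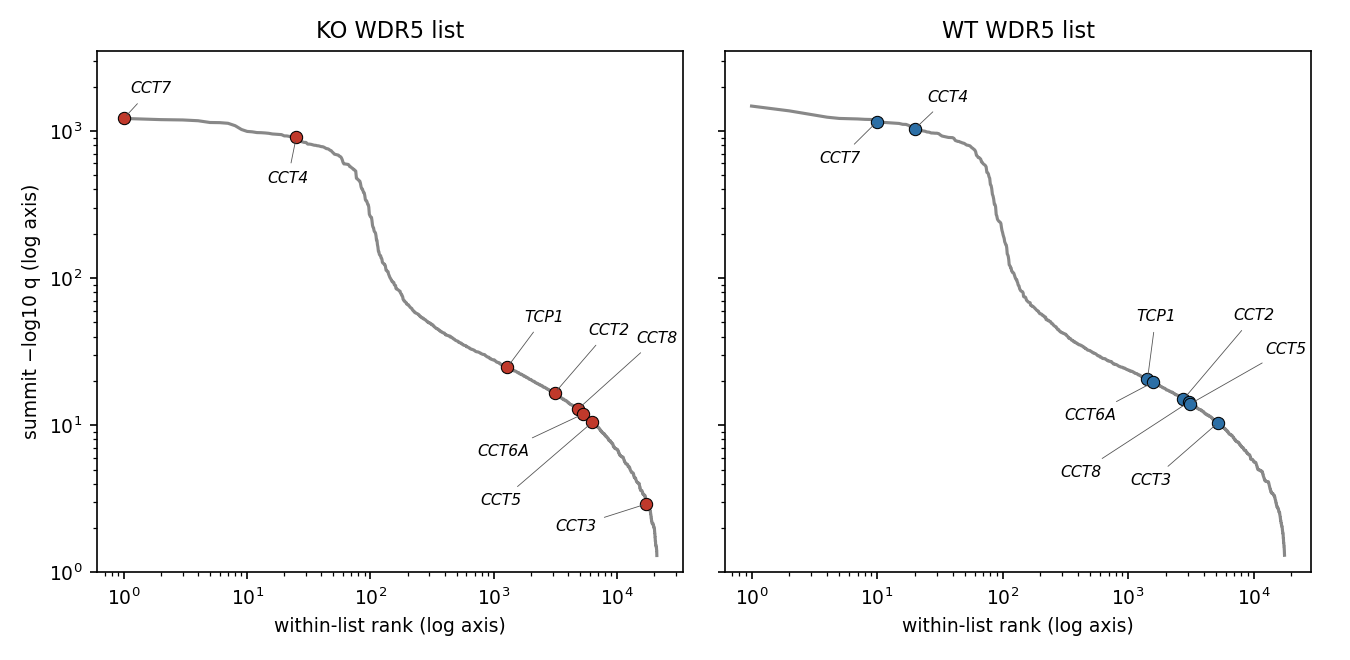
Summit −log10 q against within-list rank, both on log axes, for the KO list (left) and the WT list (right), as grey curves, with the highest gene-end summit of each CCT gene marked. CCT7 and CCT4 sit on the upper plateau at ranks 1 and 25 in KO and 10 and 20 in WT, and no other member ranks above 1286.

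Among the 5 genes whose ranks lay nearest to those of CCT7 over the 2 WDR5 lists, by the sum of both absolute rank differences and with 1 gene per summit, were E2F3, RPS4X, ARPC5L and RNPS1. E2F3, a transcription factor of genes for S phase entry, stood at rank 2 in KO and 14 in WT, and its KO summit is shared with LOC124901482. RPS4X (rank 8 in KO and 7 in WT) encodes a protein of the small ribosomal subunit. ARPC5L, a subunit of the actin-nucleating ARP2/3 complex, stood at rank 3 in KO and 1 in WT. Its KO summit is shared with RPL35, a protein of the large ribosomal subunit. RNPS1, an RNA-binding factor of splicing, stood at rank 10 in KO and 13 in WT. The rank differences of these 4 genes summed to between 5 and 12.

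The highest summit lay inside the gene at 7 of 8 members in KO, all but CCT3, and at 7 of 8 in WT, all but CCT5. At CCT7 the KO summit at 73234439 lay 131 bp and the WT summit at 73234446 lay 138 bp downstream of the start at 73234308. At CCT4, which has 2 annotated starts on the minus strand, the KO summit at 61888461 lay 195 bp and the WT summit at 61888472 lay 184 bp downstream of the nearer one. At CCT2 these distances were 147 bp in KO and 172 bp in WT, and at CCT8 they were 190 bp in KO and 274 bp in WT. Over all genes with an annotated start and a gene-end summit of rank 100 or better, the median distance downstream was 144 bp in KO (quartiles 112 and 170) and 138 bp in WT (112 and 156). Over all ranks the median was 165 bp in KO (quartiles -90 and 291, negative being upstream) and 163 bp in WT (-79.2 and 290), with 73.0% of genes in KO and 73.5% in WT having the summit downstream of the start. For the 7 members with a start in the table, all gene-end summits lay within 1 kb of a start and none at the 3′ end.

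**Figure D3:**
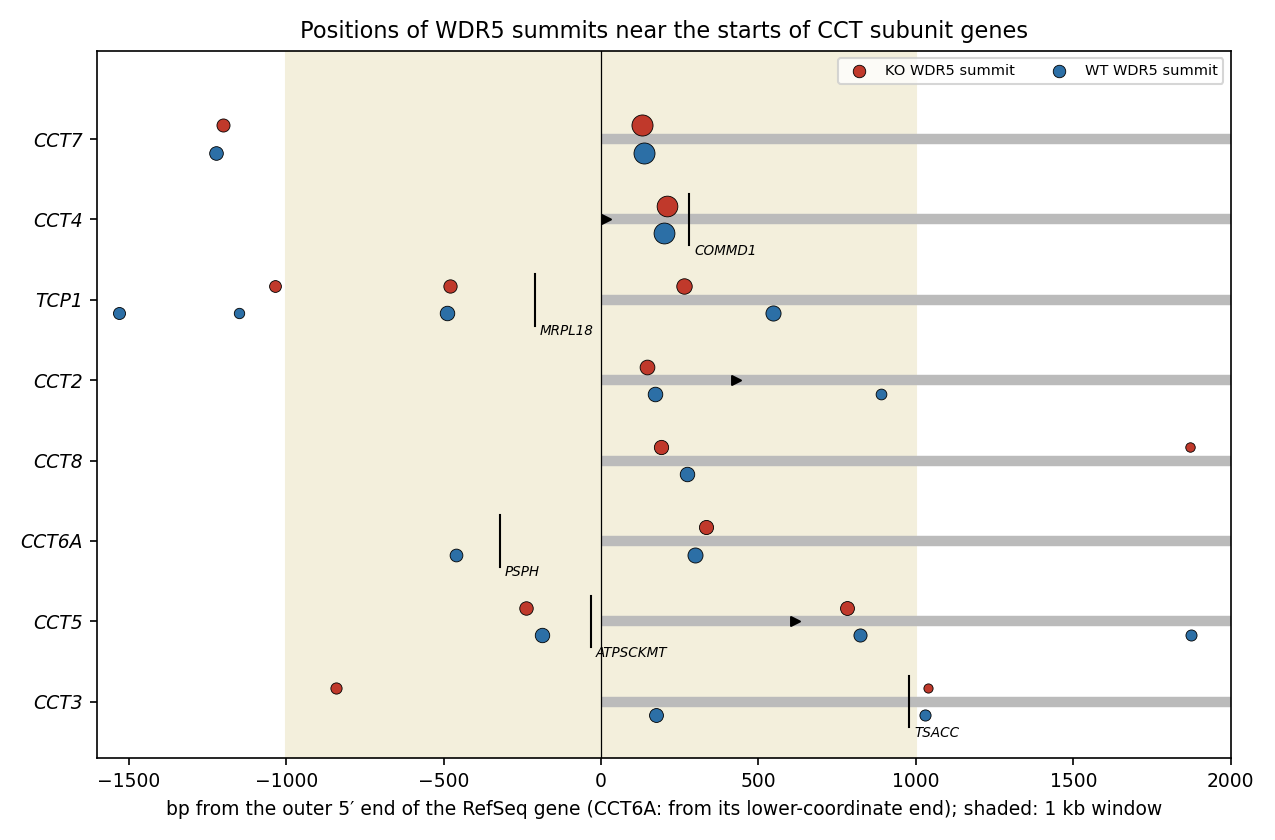
Distance of KO (upper row of each gene) and WT (lower row) WDR5 summits from the outer 5′ end of each CCT gene in bp, or from its lower-coordinate end for CCT6A, with larger points for higher −log10 q, grey bars for the gene, arrowheads for further annotated starts and vertical bars for ends of neighbouring genes. The KO and WT summits of CCT7 and CCT4 lie one above the other, whereas at CCT3 the KO summit 842 bp outside and the WT summit 176 bp inside the gene lie apart.

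The highest KO and WT summits fell within 50 bp of each other at 4 of 8 members, and at 40.1% of the 9307 genes with summits in both genotypes. At CCT7 they lay 7 bp apart and at CCT4 11 bp, at CCT2 25 bp and at CCT6A 36 bp. At CCT8 the distance was 84 bp and at TCP1 282 bp. CCT5 and CCT3 had their highest summits 969 bp and 1018 bp apart. The median distance was 60.0 bp over the 8 members and 78.0 bp over all genes with both. The short distances at CCT7 and CCT4 are those of their rank class: genes with a KO rank of 1 to 25 had a median of 10.5 bp, those with ranks of 1001 to 5000 had 62.0 bp, and those after rank 10000 had 136 bp.

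**Figure D4:**
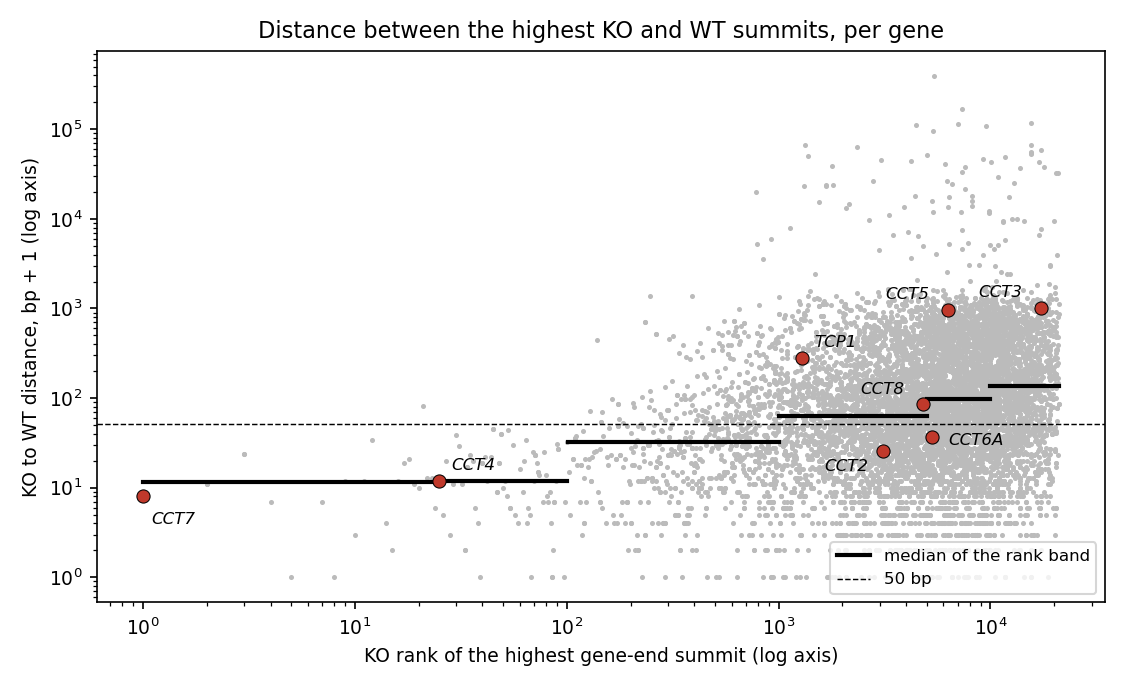
Distance between the highest KO and WT gene-end summits of a gene (bp plus 1, log axis) against the KO rank of that gene (log axis), for all genes with summits in both genotypes (grey) and the CCT genes (red), with the median of each rank band as a black bar and 50 bp as a dashed line. CCT7 and CCT4 lie at 7 and 11 bp, and TCP1, CCT5 and CCT3 lie well above the bars of their bands.

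TCP1 and CCT5 had 2 gene-end summits in each genotype. TCP1 had a KO summit at 159789337 and a WT summit at 159789055, both inside the gene, and a second pair upstream at 159790082 in KO and 159790092 in WT, only 10 bp apart. CCT5 had one pair outside the gene, at 10249684 in KO and 10249733 in WT, and one inside, at 10250702 in KO and 10250743 in WT. The pairs were 49 bp and 41 bp apart. The inner summit was the higher one in KO (−log10 q 10.5 against 8.38 outside) and the outer one in WT (14.0 outside against 7.02 inside). The start annotated for CCT5 in the promoter table lies at 10250537, so the inner summits were 165 bp downstream of it in KO and 206 bp in WT. Counting any KO gene-end summit with any WT gene-end summit of the gene, 6 of 8 members had a pair within 50 bp, all but CCT3 and CCT8, against 47.6% of the 9307 genes with both.

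CCT3 was the member whose summits differed most in position between the lists. Its single KO gene-end summit lay at 156339134, 842 bp outside the gene, and its single WT gene-end summit at 156338116, 176 bp inside. A weaker pair just beyond the 1 kb limit lay at nearly the same base in both lists, at 156337255 in KO (−log10 q 1.33) and 156337262 in WT (2.85), 59 bp and 52 bp from the end of TSACC, a co-chaperone of a testis kinase. The KO summit nearest to the WT summit inside CCT3 lay 861 bp away. With 1 library per genotype this does not show that WDR5 moved.

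Over the 8 genes there were 11 KO and 13 WT gene-end summits. Of these, 7 KO and 7 WT summits had a partner in the other genotype within 50 bp, and 10 KO and 10 WT summits within 500 bp. The WT summits without a partner were a weak one inside CCT2 (at 69586349, −log10 q 2.40), the one at CCT3 and one near PSPH upstream of CCT6A (at 56051305, −log10 q 5.86). Including gene bodies and 10 kb on either side, the KO list held 19 summits and the WT list 20 near the members. Just outside the 1 kb limit lay the summits of TCP1 at 1036 bp in KO and 1149 bp in WT and those of CCT7 at 1201 bp in KO and 1222 bp in WT, and just inside it were summits at CCT3 (842 bp, KO) and CCT2 (890 bp, WT).

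Most members lie close to another gene. An end of another protein-coding gene lay within 1 kb of an end of 5 of 8 members, against 28.5% of all protein-coding genes. COMMD1, a regulator of copper handling and NF-κB, has an annotated end 280 bp inside CCT4, and the CCT4 summit lay 70 bp from that end in KO and 81 bp in WT, nearer than to CCT4's own. MRPL18, a mitochondrial ribosomal protein gene, has an end 210 bp from TCP1, and the upstream summits lay 270 bp from it in KO and 280 bp in WT. ACAT2, a cytosolic thiolase gene, has an end 614 bp from the other end of TCP1, where no gene-end summit was called. ATPSCKMT, a methyltransferase of an ATP synthase subunit, has an end 33 bp from CCT5, and PSPH, the phosphoserine phosphatase, has one 321 bp from CCT6A. SUMF2 has an end 297 bp beyond the other end of CCT6A, and summits lay 526 bp from it in KO (56064812, −log10 q 7.85) and 151 bp in WT (56064437, −log10 q 12.7).

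Of the members' gene-end summits, 4 of 11 in KO and 5 of 13 in WT lay nearer to an end of another gene than to the member's own. The share over all gene-end summits was not computed, so these counts do not set the members apart. CCT2, CCT7 and CCT8 had no such neighbour within 1 kb. PRADC1 has an end between CCT7 and a weaker pair of summits at 73233107 in KO (−log10 q 6.83) and 73233086 in WT (9.13), which lay 177 bp and 198 bp from its end. Which of 2 neighbouring genes a shared summit serves cannot be told from a position.

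No EMBOW-F summit was called near these genes, as at most genes. An EMBOW-F gene-end summit was found at 0 of 8 members and at 1.40% of all protein-coding genes, and the EMBOW-F list held 0 summits in the members' bodies or within 10 kb of them, where 6.67% of all protein-coding genes had one. With shares this low, a count of 0 of 8 does not set the members apart. The nearest EMBOW-F summit lay 156255 bp from CCT5 and 262361 bp from CCT6A, the closest members. The distance was 373382 bp at TCP1, 447077 bp at CCT8, 744498 bp at CCT4, 884778 bp at CCT2 and 1323263 bp at CCT3. CCT7, with the highest KO WDR5 summit, was the farthest, at 2565089 bp. Over all protein-coding genes the median distance was 1546767 bp (quartiles 385513 and 4015438). The list holds called summits alone, so weaker EMBOW signal at these genes would not appear in it.

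The authors' deposited table of 18665 transcripts, named as new WDR5 targets that depend on EMBOW, held no transcript on the strand of any of the 7 members whose strand is known here, and none that overlapped CCT6A. The authors' deposited table held 1 transcript that overlaps CCT4, at chr2:61868432-61886082, and it runs on the opposite strand. How the authors chose those transcripts is not stated in the labels, and the table was made in this study. The share of all protein-coding genes that those transcripts overlap was not computed, so the members' absence does not set them apart.

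Genes that work with CCT were marked in some cases and not in others, and none reached the level of CCT7 or CCT4. Prefoldin, the complex that hands nascent actin and tubulin to CCT, was marked at 5 of its 6 genes in KO and at 4 of 6 in WT. Its highest member was PFDN2 (KO rank 2792) and its lowest PFDN4 (KO rank 9903), VBP1 had none, and PFDN1 had one in KO (rank 4346) with the nearest WT summit 43357 bp away. Of the phosducin-like and thioredoxin-like co-chaperones, PDCL had one in both lists (rank 6736 in KO and 1709 in WT), whereas PDCL3 and TXNDC9 had none. Of all protein-coding genes 53.4% were marked in KO and a similar share in WT. The counts for prefoldin and the co-chaperones were not tested against these shares and do not set them apart.

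The substrates were less even. Of 15 tubulin and actin genes, 13 were marked in KO and 13 in WT. ACTR2, a subunit of the ARP2/3 complex, stood highest at KO rank 278, and TUBA4A lowest at 20827. Other substrates were marked in 7 of 7 cases in each genotype, with VHL, the tumour suppressor that CCT folds, at rank 939 in KO and 520 in WT on the same base, and FZR1, an activator of the anaphase-promoting complex, at KO rank 14127. The tubulin cofactors, which act after CCT to build the tubulin dimer, were marked in 6 of 6 cases in each, with ARL2 highest (KO rank 1427) and TBCE lowest (KO rank 5586).

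Chaperonin genes outside the CCT ring were all far below CCT7 and CCT4. HSPD1 and HSPE1, which encode the mitochondrial chaperonin and its lid and lie head to head, shared 1 summit in each list, at rank 1466 in KO and 1500 in WT. CCT6B, the paralog of CCT6A known from testis, had a summit at rank 5069 in KO and 11499 in WT, and CCT8L2 had none. Of the chaperonin-like genes of Bardet-Biedl syndrome, MKKS was marked in KO alone (rank 17413), BBS10 in both (19157 in KO and 12733 in WT), and BBS12 in neither.

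Proteasome subunit genes served as another large complex of dividing cells. Of these 31 genes, 27 were marked in KO and 29 in WT, from PSMD7 at KO rank 693 to PSMC6 at 20539. Within the highest 10% of the KO list stood 3 of 8 CCT genes and 5 of 31 proteasome genes (16.1%), and within that of the WT list 4 of 8 CCT genes and 2 of 31 proteasome genes (6.45%). No proteasome gene, and no gene of the other lists, ranked 100 or better in KO. The median KO rank was 3951 for the CCT genes and 5110 for the marked proteasome genes, and the difference between the sets was not tested. The CCT counts and median include CCT7, by whose KO value the set was chosen, so they do not set the 2 complexes apart. The other 6 CCT genes, apart from CCT7 and CCT4, lay within the rank range of the proteasome genes in KO, and in WT TCP1 (rank 1428) lay just before the best of them, PSMD3 (rank 1447).

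**Figure D5:**
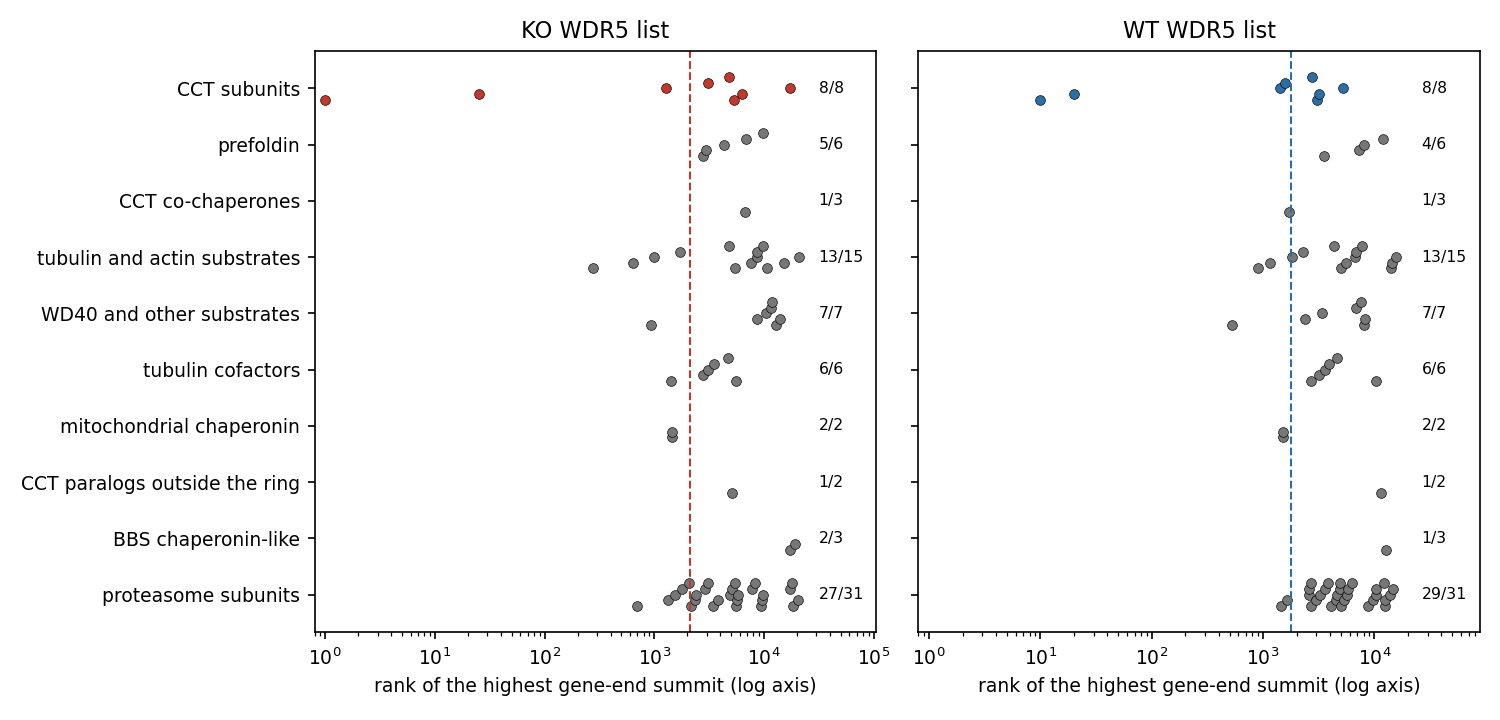
Rank of the highest gene-end summit (log axis) per gene in the KO list (left) and the WT list (right), for the CCT genes (coloured) and 9 related or compared gene lists (grey), with the number of marked genes over the number in the list at the right of each row and the highest 10% of each list left of the dashed line. CCT7 and CCT4 lie far to the left of all other genes shown.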

How the data were processed

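Anti-WDR5 ChIP-seq of KO and WT HEK293T cells and anti-FLAG ChIP-seq of EMBOW-FH cells were used, 1 library per group of the 10 samples in the labels. H3K4me3 and input libraries were not analysed here. Per the submitters' processing notes, the build was hg38 and the tools were MACS2 2.2.7.1, Bowtie2 2.4.5 and deepTools 3.5.1, without settings. The deposited summit values were read as −log10 q, since no summit was below 1.30, which a q of 0.05 gives. The labels state no control, pooling or filter. The deposited score of the transcript list is 0 throughout, and 1 of its chromosome names, cut short at the front, was mended. The EMBOW-F list was matched to the FLAG sample as the tagged-EMBOW ChIP of the labels.

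Summits within 1 kb of either RefSeq gene end (GRCh38.p14, chromosomes 1 to 22, X and Y) counted for every such gene, tied values shared the better rank, and strands came from RefSeq promoters. The search was tested on simulated data. Python 3.11.15, numpy 2.4.6, pandas 2.3.3 and matplotlib 3.10.9 were used. Members, gene lists and motifs were chosen with earlier results of these data known. Genes named were the members, their neighbours within 1 kb, the highest and lowest of each list and the 5 nearest CCT7 in rank, of which 1 is not reported here. PRADC1, and list genes without a summit or marked in a single genotype, were added after their values were seen. Alternatives were windows of 500 bp and 2 kb, a q of 1e-05 or less, equal list lengths, starts alone and, chosen after seeing the data, the nearest gene alone, any pair of summits and all alternatives of the WT count in the highest 10%.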

Additional observations from a re-analysis of the deposited data

How the results depend on the processing

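Of 43 recomputed counts of members, 42 stayed within 1.5 times the reported value, a limit that lets 3 become 2. Some of the 43 could not change, since equal list lengths leave the shorter WT list as it is. The number marked in KO was 7 to 8: CCT3 dropped out with a 500 bp window and with a q of 1e-05 or less, and CCT4 when a summit counted for the gene with the nearest end alone, an alternative chosen after seeing the data, since COMMD1 then takes its summit. The number marked in WT was 7 to 8, and CCT4 dropped out there too when the gene with the nearest end alone counted. In both lists, CCT6A could not be counted from starts alone. Members with the highest KO and WT summits within 50 bp numbered 3 to 6, where the 6 rests on any pair of summits. Members in the highest 10% of the KO list numbered 2 to 3. At a q of 1e-05 or less TCP1 fell out, as the list shortens to 12789 summits. Members in the highest 10% of the WT list, whose alternatives were all chosen after seeing the data, numbered 2 to 4, and the 2, at a q of 1e-05 or less (10923 summits), were CCT4 and CCT7, without TCP1 and CCT6A. The EMBOW-F count was 0 throughout and could not move in these settings, as no EMBOW-F summit lay within 10 kb of a member. No replicate could be left out and no paired analysis was possible because each group has 1 library. Without read counts, a member's absence from a list cannot be told from low depth.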

Other observations

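RefSeq lists 17 pseudogenes of the CCT subunits, and 2 of them had a WDR5 gene-end summit in each genotype. Both are transcribed copies of CCT6A on chromosome 7. CCT6P1 had a −log10 q of 8.79 in KO (rank 7704) and of 8.56 in WT (rank 6636), and CCT6P3 had 2.86 in KO (rank 17413) and 14.6 in WT (rank 2955). The labels do not say how reads that match several copies were placed, so the values of CCT6A and its copies are uncertain. No WDR5 summit was called at a pseudogene of CCT7 or CCT4. EMBOW-F summits lay at the pseudogenes CCT3P1 (−log10 q 2.18) and CCT4P2 (2.26), both below the median of that list. Shares over all pseudogenes were not computed, so neither the WDR5 nor the EMBOW-F counts set the CCT pseudogenes apart.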
